A study of Mus musculus with 9 samples.

Results

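The 34 genes described here drive or mark cell division: 14 replication genes, 4 regulators of the passage from G1 into S phase and 16 mitotic genes. They were found by symbol in the gene table, and 32 of the 34 had a mean of at least 5 normalized counts over the 9 libraries, of 13081 genes that did so and 32285 genes in all. The 2 genes below that level were Cdc6, which loads the replicative helicase, with 3.93 normalized counts on average, and Bub1, a spindle checkpoint kinase, with 3.36. Expression was measured by RNA-seq in livers of Tet-OFF mice, in 3 groups of 3 libraries, to ask what doxycycline (Dox) and tetracycline (Tc) change besides a tet-regulated transgene.

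The mice were males, 4 weeks old when the drugs were started. All groups carried a piggyBac CAG-CreERT2 allele together with 2 alleles of the Rosa26 locus, one with tTA behind a loxP-flanked stop (LSL-tTA) and one with the reporter tetO-Venus-ires-mCherry, and all were given tamoxifen, which releases tTA through Cre. The CAG promoter is active in most cell types. The controls (Control) received tamoxifen only. The Dox group also received Dox hyclate, and the Tc group Tc hydrochloride, each at 2 mg/mL in sucrose-supplemented drinking water for 7 days. Dox is a close analog of Tc that differs in the position of a hydroxyl group. Both drugs stop tTA from driving Venus and mCherry, so that an effect of a drug and the loss of the transgene products cannot be told apart against these controls, whose drinking water is not described.

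A dividing cell first commits to the cycle in G1, when cyclin D and then cyclin E kinases release E2F factors from the retinoblastoma proteins. E2F targets then supply the MCM helicase, the sliding clamp and the enzymes that make deoxynucleotides. Genes of mitosis peak later, in G2 and M phase, and many of them are kept off in resting cells by the DREAM complex, which binds the CHR element in their promoters. The liver of a weanling mouse still grows, and its hepatocytes, many of which become polyploid by replicating DNA without completing division, share the tissue with dividing macrophages, endothelial cells and blood cells.

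Reads on genes ranged from 7426136 to 12183041 per library. All 8 hepatocyte markers were detected in all 9 libraries, although Dox library 2 stood apart in them, with Serpina1c at 1997 normalized counts against 12587 to 26336 in the others and Tat at 159364 against 11817 to 63627. Library 3 of each group lay close to a weighted sum of libraries 1 and 2, with weights of 58.8% and 40.8% in the controls, 61.3% and 34.4% with Dox and 59.8% and 36.9% with Tc. Libraries 1 and 2 differed over 2-fold for 6 of the 32 genes in the controls, 16 with Dox and 11 with Tc, and library 3 lay between them for 5, 15 and 11 of these. A group thus cannot be taken as 3 independent livers, and adjusted p-values over all 9 libraries are too small. Counts of calls among the 32 genes and the calls of single genes are therefore also given without libraries 3. Statements that the libraries of 2 groups did not overlap use all 3 libraries of each group. They are thus not orders of 3 independent livers, and are to be read beside the share of all genes. The study describes its libraries as independent biological samples, and the labels do not say whether they come from separate animals.

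Levels of different genes were compared per kilobase of exon. Gene positions and exon lengths are those of GENCODE vM21 on GRCm38. In the controls, Ccnd1 (cyclin D1) led with 164 normalized counts per kilobase, followed by Pcna, the sliding clamp, with 50.1. The median was 9.12 per kilobase for the 13 replication genes and 3.83 for the 15 mitotic genes above the minimum. The lowest was Kif23, a motor of the central spindle, with 1.21 per kilobase. With Dox these medians were 9.51 and 1.22 per kilobase, and with Tc 11.02 and 5.69. Several mitotic genes thus rested on few reads: Ccnb1 had 6, 15 and 9 reads in the control libraries and 2, 1 and 1 with Dox. Mki67 had the most of the class, with 87, 170 and 92 reads in the controls and 24, 46 and 45 with Dox.

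The mitotic genes had lower values with Dox than in the controls, and the replication genes stayed near them, as the map of all 32 genes shows. The log2 fold change with Dox was below 0 for 15 of 15 mitotic genes (median -1.75, 3 passing the test) and for 5 of 13 replication genes (median 0.04, 0 passing), beside a median of -0.01 over all genes tested. With Tc the medians were 0.54 and 0.27, and no gene of either class passed. A gene was called when its fold change exceeded 2 and its limma p, adjusted by Benjamini and Hochberg over the 13081 genes, was under 0.05. Fold changes are on the scale of log2(normalized count + 1), which understates changes of low genes. Since RNA was taken from whole liver, fewer cells of a type and less RNA per cell cannot be told apart.

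**Figure D1:**
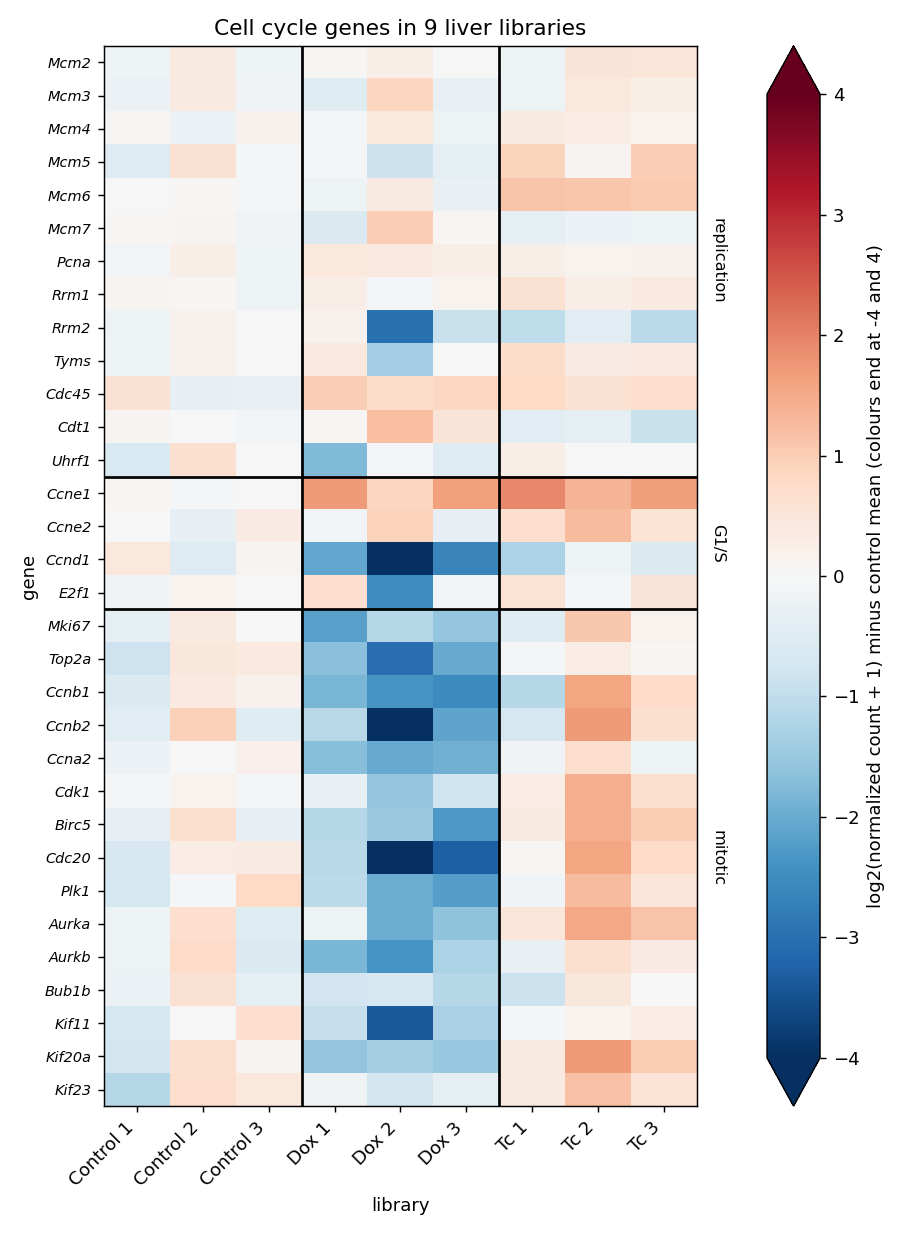
Each row is 1 of the 32 genes and each column 1 library; colours give log2(normalized count + 1) minus the mean of the 3 control libraries, and end at -4 and 4. The mitotic rows are mostly blue in the Dox columns, with per-library medians of -1.11, -1.998 and -1.61, whereas the replication rows have medians of 0.05, 0.37 and -0.03 there.

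Against the controls, 5 of the 32 genes passed the test with Dox: Ccne1 rose, and Ccnd1, Mki67, Top2a and Ccna2 fell. Over all genes tested, 1.12% were called higher with Dox and 4.01% lower. By class, 0 of 13 replication genes were called, 1 higher and 1 lower of the 4 G1/S regulators, and 0 higher and 3 lower of the 15 mitotic genes. At an unadjusted limma p under 0.05 the replication genes had 2 higher and 0 lower, and the mitotic genes 0 higher and 11 lower, beside 12.9% higher and 15.7% lower of all genes. DESeq2 on the recovered reads called 1 gene higher and 10 lower, beside 3.09% and 6.17% of all genes. With edgeR the counts were 1 and 3, beside 5.49% of all genes in either direction. Without libraries 3, limma called 0 of the 32 genes and 0 of all genes; 1 gene was higher and 5 lower at an unadjusted p under 0.05, beside 5.65% of all genes lower. DESeq2 and edgeR also called 0 of the 32 there, and of all genes DESeq2 called 1.09% and edgeR 0. At an unadjusted p, each had 1 higher and 5 lower. Of all 13081 genes, 1336 (DESeq2) and 1162 (edgeR) passed in either direction. The 5 calls became 2 without Control replicate 1, 0 without Control replicate 2, 0 without Control replicate 3, 12 without Dox replicate 1, 6 without Dox replicate 2, 0 without Dox replicate 3 and 2 without Tc replicate 3. Of all genes, 12.4% were called without Dox replicate 1, 9.21% without Dox replicate 2 and from 0.520% to 4.65% without any other library.

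With Tc, limma called 0 of the 32 genes against the controls, beside 0.183% of all genes. At an unadjusted p under 0.05, 4 were higher and 0 lower, against 5.11% and 6.52% of all genes. DESeq2 called 2 higher, Ccne1 and Mcm6, beside 0.520% of all genes, and edgeR called 0, beside 0.176%. At an unadjusted p, edgeR had 4 higher and 0 lower, beside 1595 of the 13081 genes in either direction. Without libraries 3, limma, DESeq2 and edgeR called 0, and DESeq2 0.0688% of all genes. At an unadjusted p, each had 2 higher and 0 lower there. Of all genes, 275 (limma), 336 (DESeq2) and 296 (edgeR) passed in either direction. The limma count was 1 without Dox replicate 1 and 2 without Dox replicate 2, beside 0.428% and 2.04% of all genes. Between Dox and Tc, limma called 0 of the 32 genes and 0% of all genes, with 1 gene higher with Dox and 16 lower at an unadjusted p under 0.05, beside 10.2% and 11.0% of all genes. DESeq2 called 1 higher with Dox and 15 lower, beside 2.32% and 2.55% of all genes, and edgeR called 0. At an unadjusted p, edgeR had 1 and 17, beside 3016 of the 13081 genes in either direction. Without libraries 3, limma called 0 with 0 higher and 13 lower at an unadjusted p, beside 2.63% of all genes lower. DESeq2 called 0 there, with 0.199% of all genes called, and edgeR 0. At an unadjusted p, DESeq2 had 1 and 13, and edgeR 1 and 11. Of all genes, 809 (DESeq2) and 598 (edgeR) passed in either direction. The limma count for Dox against Tc was 16 without Dox replicate 1, 7 without Dox replicate 2 and 2 without Tc replicate 1, beside 11.0%, 1.51% and 0.604% of all genes.

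**Figure D2:**
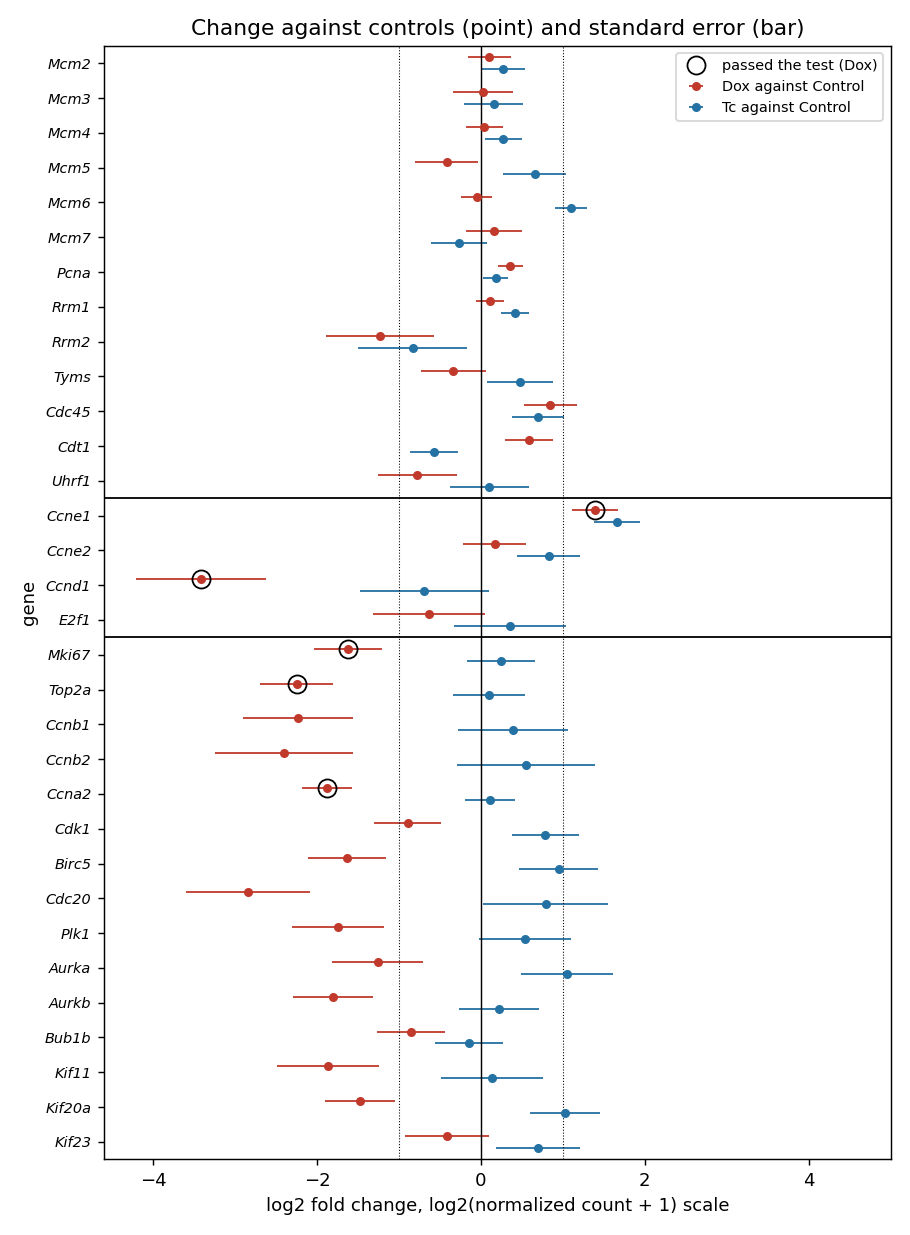
Points give each gene's log2 fold change against the controls with Dox (red) and Tc (blue), which share those controls, and bars give 1 standard error; circles mark the 5 genes that passed the test, all with Dox. All 15 mitotic points for Dox lie below 0, from -2.84 for Cdc20 to -0.41 for Kif23, while the replication points lie between -1.23 and 0.85.

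The promoters of both classes were read for sequence that could tell them apart. Promoter windows of RefSeq, from 250 bases before to 50 bases after the start of a gene in GRCm38.p6, matched 28 of the 34 genes. Mcm4, Ccne2, Ccnd1, Ccna2, Aurkb and Kif20a had no window in the table used. The motifs searched, on both strands, were the CHR element (TTTGAA), the CCAAT box that binds NF-Y (CCAAT) and 4 E2F words (TTTCCCGC, TTTGGCGC, TTTCGCGC and TTTGCCGC), and a match may overlap another. Below are 5 windows: Mcm6 and Mcm3 as replication genes with E2F words, Top2a and Mki67 as mitotic genes that fell with Dox, and Cdk1 as the gene with all 3 kinds of motif. Capitals mark the motifs.
Mcm6, chr1:128359656-128359955, minus strand: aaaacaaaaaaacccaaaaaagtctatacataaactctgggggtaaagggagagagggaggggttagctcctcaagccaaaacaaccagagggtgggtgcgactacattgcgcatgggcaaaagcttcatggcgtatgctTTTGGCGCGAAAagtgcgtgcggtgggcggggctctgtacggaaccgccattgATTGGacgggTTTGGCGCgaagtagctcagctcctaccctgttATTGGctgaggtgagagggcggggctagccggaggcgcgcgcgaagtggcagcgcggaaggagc
Mcm3, chr1:20820263-20820562, minus strand: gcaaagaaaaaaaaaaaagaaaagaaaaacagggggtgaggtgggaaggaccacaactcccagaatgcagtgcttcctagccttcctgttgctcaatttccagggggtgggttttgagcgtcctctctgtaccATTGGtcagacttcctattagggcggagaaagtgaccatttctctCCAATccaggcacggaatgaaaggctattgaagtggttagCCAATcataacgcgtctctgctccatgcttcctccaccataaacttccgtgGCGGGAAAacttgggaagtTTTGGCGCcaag
Top2a, chr11:99024140-99024439, minus strand: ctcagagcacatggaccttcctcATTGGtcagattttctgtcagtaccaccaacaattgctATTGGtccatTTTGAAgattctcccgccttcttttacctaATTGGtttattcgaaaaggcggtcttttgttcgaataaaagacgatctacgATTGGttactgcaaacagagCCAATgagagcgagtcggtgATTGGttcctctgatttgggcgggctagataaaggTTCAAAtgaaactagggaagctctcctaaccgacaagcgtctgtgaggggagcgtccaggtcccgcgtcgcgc
Mki67, chr7:135716330-135716629, minus strand: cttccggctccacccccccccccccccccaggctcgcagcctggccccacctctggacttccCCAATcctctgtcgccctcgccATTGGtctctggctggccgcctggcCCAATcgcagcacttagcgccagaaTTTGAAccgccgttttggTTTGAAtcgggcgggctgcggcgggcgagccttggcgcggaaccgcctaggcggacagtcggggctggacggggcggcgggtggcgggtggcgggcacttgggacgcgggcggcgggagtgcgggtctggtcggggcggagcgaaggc
Cdk1, chr10:69352863-69353162, minus strand: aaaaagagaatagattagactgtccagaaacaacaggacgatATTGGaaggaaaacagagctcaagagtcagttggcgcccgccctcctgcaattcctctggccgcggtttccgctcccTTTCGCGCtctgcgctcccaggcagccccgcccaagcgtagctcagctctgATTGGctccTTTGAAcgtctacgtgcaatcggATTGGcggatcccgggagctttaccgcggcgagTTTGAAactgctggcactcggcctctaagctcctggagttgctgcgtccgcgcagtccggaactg

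Mcm6 held 3 E2F words, a pair of them overlapping, and Mcm3 held 2, both after the start. Top2a and Mki67 each held 2 CHR elements and no E2F word. Cdk1 held 2 CHR elements, 3 CCAAT boxes and 1 E2F word. A CHR element stood in 10 of the 13 windows of mitotic genes (76.9%), in 2 of the 15 windows of replication genes (13.3%) and in 17.9% of the 32851 windows in the table. An E2F word stood in 1 mitotic window (7.69%), 7 replication windows (46.7%) and 2.26% of all windows. CCAAT boxes were common to both, in 92.3% of mitotic and 80% of replication windows, against 37.4% of all. In the other cell cycle lists, CHR was in 70.6% of 51 windows of other mitotic genes and 16.3% of 49 windows of other replication genes, and E2F words were in 5.88% and 28.6%. The 3 mitotic genes without a CHR word were Bub1, Birc5 and Ccnb1. The windows of Ccne1 and E2f1 held none of these words. A match is a run of letters and not a measured site.

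**Figure D3:**
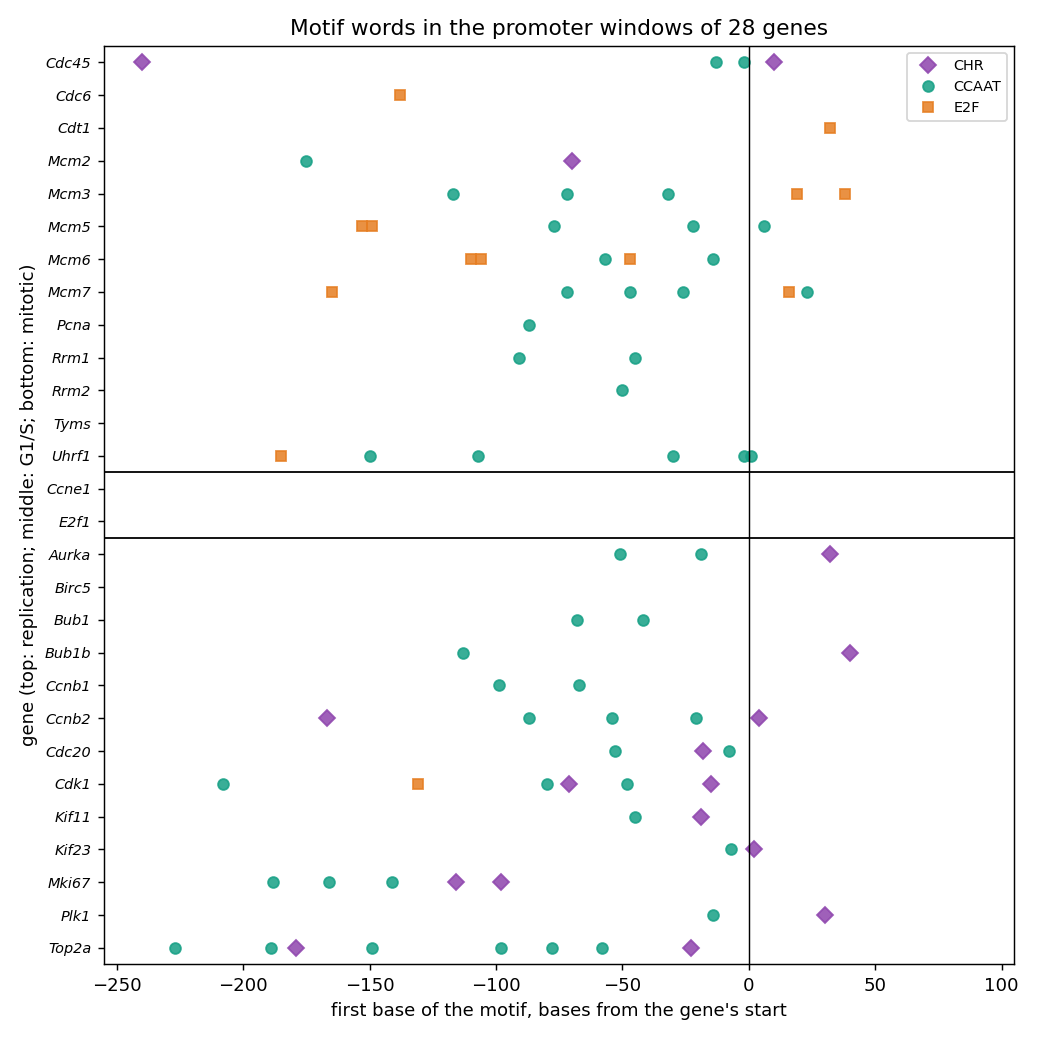
Each row is 1 of the 28 genes with a promoter window and each symbol a motif, placed by the distance in bases of its first base from the start of the gene; Mcm7 and Uhrf1 combine 2 windows each. CHR elements (diamonds) sit mostly in the lower, mitotic block, at a median of -18.5 bases, and E2F words (squares) mostly in the upper, replication block, at a median of -108.

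Among the replication genes, the 6 subunits of the MCM helicase, which unwinds DNA at the fork, did not share a direction. Mcm6 had 70.9, 73.4 and 68.7 normalized counts in the controls, 61.1, 92.0 and 57.2 with Dox, and 156, 155 and 148 with Tc. The Tc libraries lay above both other groups without overlap, whereas the Dox range enclosed the controls. For Tc against the controls this was a log2 fold change 1.10, SE 0.19, limma adjusted p = 0.0783; DESeq2 called it with all libraries (adjusted p = 3.39e-04) and not without libraries 3 (adjusted p = 0.798). Its difference between Dox and Tc was -1.15 on the log2 scale (95% interval -1.58 to -0.71), which limma did not call (adjusted p = 0.0676) and DESeq2 did (adjusted p = 1.16e-04, and 0.553 without libraries 3).

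Mcm7 had 107, 113 and 94.1 normalized counts in the controls, 69.5, 209 and 110.0 with Dox, and 79.1, 88.1 and 93.5 with Tc. Dox library 2 stood far above Dox libraries 1 and 3, and the Tc libraries lay just below all controls. Mcm3 showed the same split within Dox, with 39.0, 98.9 and 44.0 normalized counts against 46.6, 69.9 and 49.6 in the controls and 46.9, 73.7 and 64.9 with Tc. The log2 fold changes of Mcm2, Mcm3, Mcm4 and Mcm5 with Dox were 0.10, 0.02, 0.04 and -0.42, and with Tc 0.27, 0.16, 0.27 and 0.66. None of them was called, and their standard errors ran from 0.23 to 0.38. Mcm7 shares its ends with Cops6 and Ap4m1 on the opposite strand, and the strand setting of the counting is not given in the sources used here.

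Cdt1, which brings the helicase to origins and is degraded once S phase begins, had 58.2, 54.0 and 49.6 normalized counts in the controls, 55.8, 127 and 76.5 with Dox, and 39.1, 41.4 and 28.6 with Tc. The Dox libraries all lay above the Tc libraries, and the Tc libraries all below the controls. The difference between Dox and Tc was 1.16 on the log2 scale (95% interval 0.49 to 1.83, limma adjusted p = 0.116; DESeq2 adjusted p = 0.0122, and 0.756 without libraries 3), and 0.59 with Dox and -0.57 with Tc against the controls. Cdt1 overlaps the gene model Gm20388 on the same strand for 5540 bases. Cdc45, the helicase cofactor, had 12.7, 6.19 and 6.36 normalized counts in the controls, 16.8, 13.8 and 15.0 with Dox, and 14.6, 12.6 and 13.5 with Tc. Its Dox libraries did not overlap with the controls, although the reads were few (12, 7 and 5 in the controls), and limma did not call it (log2 fold change 0.85, SE 0.32, limma adjusted p = 0.129).

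The enzymes of deoxynucleotide supply differed from each other. Rrm2, the small subunit of ribonucleotide reductase that is made in S phase, had 60.3, 79.6 and 71.2 normalized counts in the controls, 79.0, 8.05 and 37.0 with Dox, and 34.2, 52.2 and 32.8 with Tc. The controls all lay above the Tc libraries, and within Dox the values ran from the control level in library 1 to far below it in library 2. Its partner Rrm1, a more stable large subunit, had 91.0, 89.4 and 73.7 normalized counts in the controls, 102, 79.4 and 93.3 with Dox, and 129, 101 and 112 with Tc, with every Tc library above every control. Tyms, which makes thymidylate, was at 40.2, 52.2 and 45.8 normalized counts in the controls, 60.02, 17.3 and 44.9 with Dox and 76.2, 57.6 and 60.6 with Tc, so that the Tc libraries lay above the controls and Dox library 2 was the lowest, as for Rrm2. The log2 fold changes with Dox were -1.23 for Rrm2 (SE 0.66), 0.11 for Rrm1 (SE 0.17) and -0.34 for Tyms (SE 0.40), and limma called none of them with either drug.

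Pcna, which also serves DNA repair, had 111, 144 and 106 normalized counts in the controls, 160.1, 156 and 143 with Dox, and 139.6, 132 and 134 with Tc. The Dox libraries reached higher than the controls, but Dox library 3 lay below control library 2 (log2 fold change 0.36, SE 0.15, limma adjusted p = 0.165). Uhrf1, which carries DNA methylation across the fork, had 10.6, 26.5 and 16.5 normalized counts in the controls, 4.21, 16.1 and 11.4 with Dox, and 20.5, 17.1 and 16.8 with Tc, and its groups overlapped except that every Dox library lay below every Tc library. Cdc6, below the minimum level, had from 2 to 3 reads in the Dox libraries and from 3 to 7 in the others. Over the 13 replication genes the median log2 fold change was 0.04 with Dox and 0.27 with Tc, beside -0.01 and -0.0015 over all genes tested, and without libraries 3 it was 0.07 and 0.14.

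The 4 regulators of G1 and S phase held the highest and the lowest log2 fold change of the 32 genes with Dox. Ccne1, cyclin E1, which starts S phase with Cdk2 (ENSMUSG00000002068, chr7:38097984-38107534, minus strand), had 13.8, 12.4 and 12.7 normalized counts in the controls, 44.2, 24.2 and 42.2 with Dox, and 51.8, 35.1 and 43.8 with Tc. Every Dox and every Tc library lay above every control. Against the controls it rose with Dox (log2 fold change 1.39, SE 0.28, limma adjusted p = 0.0242), and with Tc it had a log2 fold change 1.66, SE 0.28, limma adjusted p = 0.0745, a larger estimate past the fold limit and not the adjusted p. DESeq2 called it with both drugs (adjusted p = 0.00261 and 0.00126), and without libraries 3 its DESeq2 adjusted p was 0.409 and 0.913. Dox and Tc differed by -0.26 on the log2 scale (95% interval -0.90 to 0.37).

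Ccnd1, which growth signals induce in hepatocytes and which couples them to the cycle (ENSMUSG00000070348, chr7:144929931-144939925, minus strand), had 995, 519 and 805 normalized counts in the controls, 177, 15.0 and 119.7 with Dox, and 307, 647 and 498 with Tc. The Dox libraries all lay below the others, and Dox library 2 lay far below Dox libraries 1 and 3. It fell with Dox (log2 fold change -3.42, SE 0.79, limma adjusted p = 0.0362), and its log2 fold change with Tc was -0.69 (SE 0.79). The difference between Dox and Tc was -2.73 (95% interval -4.52 to -0.93, limma adjusted p = 0.137; DESeq2 adjusted p = 0.0150, and 0.651 without libraries 3). Without libraries 3, the DESeq2 adjusted p against the controls was 0.120.

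Ccne2, the second cyclin E gene, had 16.9, 13.3 and 21.6 normalized counts in the controls, 15.8, 33.4 and 13.2 with Dox, and 27.3, 42.3 and 25.3 with Tc. Every Tc library lay above every control, while the Dox libraries overlapped with both. The gene lies across Ints8 on the opposite strand for 5622 bases. E2f1, the activator of S phase genes, had 27.5, 33.6 and 30.5 normalized counts in the controls, 49.5, 4.60 and 28.2 with Dox, and 45.9, 29.7 and 43.8 with Tc, and Dox library 2 was again far below the rest while Dox library 1 was above every control. Neither gene was called (limma adjusted p = 0.458 for Ccne2 and 0.898 for E2f1 with Tc, and 0.801 and 0.565 with Dox).

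**Figure D4:**
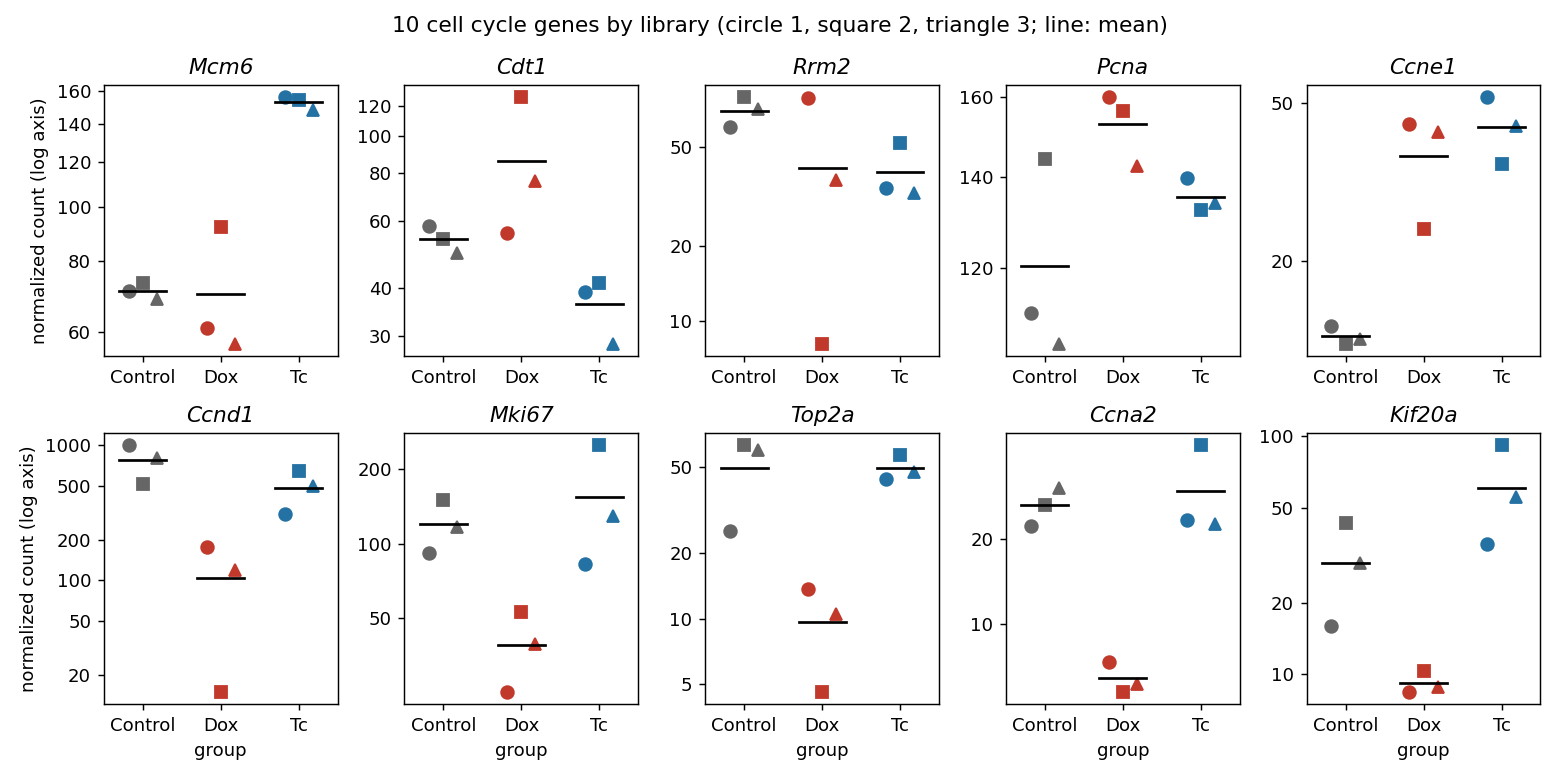
Normalized counts of 10 genes on log axes, by group; symbols mark libraries 1, 2 and 3, and lines the group means. Mcm6 separates Tc (148 to 156) from the others (57.2 to 92.0), Ccne1 separates both drugs from the controls (12.4 to 13.8), and Top2a, Ccna2 and Kif20a are lowest in the Dox libraries.

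All 15 mitotic genes above the minimum level had a negative log2 fold change with Dox, and 13 of them had no overlap between the Dox and control libraries, beside 17.4% of all genes that were lower in this way. Aurka and Kif23 were the exceptions. Summed over the 16 listed mitotic genes, the libraries held 258, 485 and 390.3 normalized counts in the controls, 127, 102 and 108 with Dox and 314, 782 and 472 with Tc. The highest 95% Poisson limit of a Dox library was 152 and the lowest of a control library 227, limits that cover counting error only. Of the replication genes, 0 were lower and 1 was higher in this way with Dox, Cdc45, beside 15.3% of all genes; Ccne1 was the other.

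Top2a, the topoisomerase that untangles sister chromatids (ENSMUSG00000020914, chr11:98992943-99024189, minus strand), had 25.4, 62.8 and 59.8 normalized counts in the controls, 13.7, 4.60 and 10.6 with Dox, and 43.9, 56.7 and 47.2 with Tc. It fell with Dox (log2 fold change -2.25, SE 0.44, limma adjusted p = 0.0226) and its log2 fold change with Tc was 0.10 (SE 0.44). Ccna2, cyclin A2, which acts in both S phase and entry into mitosis (ENSMUSG00000027715, chr3:36564865-36572150, minus strand), had 22.2, 26.5 and 30.5 normalized counts in the controls, 7.37, 5.75 and 6.16 with Dox, and 23.4, 43.2 and 22.7 with Tc. The Dox libraries were close together and well below the controls, and the adjusted p was the smallest of the 32 genes (log2 fold change -1.88, SE 0.31, limma adjusted p = 0.0141). Mki67, the proliferation marker Ki-67 that coats mitotic chromosomes (ENSMUSG00000031004, chr7:135689784-135716361, minus strand), had 92.1, 150.4 and 117 normalized counts in the controls, 25.3, 52.9 and 39.6 with Dox, and 83.0, 249.99 and 129.7 with Tc, and it fell with Dox (log2 fold change -1.62, SE 0.42, limma adjusted p = 0.0486). Among 24 other fits of Dox against the controls, Ccna2 was called in 17, Top2a in 16, Ccne1 in 14, Ccnd1 in 12 and Mki67 in 8, with adjusted p up to 0.567, and none changed direction. Without libraries 3, their limma adjusted p was 0.551 for Ccna2, 0.552 for Top2a, 0.556 for Ccne1, 0.552 for Ccnd1 and 0.567 for Mki67, and the DESeq2 adjusted p 0.285, 0.184, 0.409, 0.120 and 0.362.

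The B cyclins, Ccnb1 and Ccnb2, and Cdk1, which together drive mitosis, were lower in every Dox than in every control library. For Cdk1 the gap was small, with 12 reads in Dox library 1 and 14, 20 and 12 in the controls. Ccnb1 had 6.35, 13.3 and 11.4 normalized counts in the controls, 2.11, 1.15 and 0.880 with Dox, and 3.91, 31.5 and 17.7 with Tc. Ccnb2 had 10.6, 29.2 and 10.2 normalized counts in the controls, 6.32, 0 and 2.64 with Dox, and 8.79, 50.4 and 23.6 with Tc, and Cdk1, their kinase, 14.8, 17.7 and 15.3 normalized counts in the controls, 12.6, 4.60 and 8.80 with Dox, and 19.5, 44.96 and 25.3 with Tc. All 3 had their Dox libraries below all others. The value of 0 for Ccnb2 in Dox library 2 allows up to 3.45 normalized counts, 3 reads in that library. With Dox the log2 fold changes were -2.23, -2.40 and -0.89 for Ccnb1, Ccnb2 and Cdk1, and limma called none of them (adjusted p = 0.0720, 0.109 and 0.189), whereas DESeq2 called the cyclins (adjusted p = 0.0329 and 0.0477). Without libraries 3, DESeq2 gave Ccnb1 no adjusted p and Ccnb2 one of 0.518.

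Exit from mitosis and the spindle checkpoint were represented by Cdc20, Bub1b and Bub1. Cdc20, which activates the anaphase-promoting complex, had 10.6, 21.2 and 21.6 normalized counts in the controls, 7.37, 0 and 0.880 with Dox, and 17.6, 52.2 and 29.5 with Tc. Dox library 2 held no read of it, again allowing up to 3.45 normalized counts, and Dox library 1 lay at 7.37, below the lowest control. It passed the fold limit with Dox but not the adjusted p (log2 fold change -2.84, SE 0.76, limma adjusted p = 0.0532; DESeq2 adjusted p = 0.0138, and 0.588 without libraries 3). Bub1b, a checkpoint kinase-like protein, had 15.9, 29.2 and 14.0 normalized counts in the controls, 10.5, 11.5 and 7.92 with Dox, and 9.77, 26.1 and 18.5 with Tc, so that its Dox libraries overlapped with Tc and not with the controls. Bub1 had 3, 6 and 3 reads in the controls, 1, 0 and 1 with Dox and 2, 10 and 6 with Tc.

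The mitotic kinases Plk1, Aurka and Aurkb and the passenger protein Birc5 (survivin) had few reads. Birc5 had 6.35, 13.3 and 6.36 normalized counts in the controls, 3.16, 2.30 and 0.880 with Dox, and 10.7, 24.3 and 17.7 with Tc. Aurkb, its partner in the chromosomal passenger complex, had 8.47, 17.7 and 6.36 normalized counts in the controls, 2.11, 1.15 and 3.52 with Dox, and 7.81, 16.2 and 12.6 with Tc. The log2 fold changes with Dox were -1.63 for Birc5, -1.81 for Aurkb, -1.75 for Plk1 and -1.26 for Aurka (SE from 0.48 to 0.56), and DESeq2 called Aurkb (adjusted p = 0.0349), for which it gave no adjusted p without libraries 3. Aurka, the kinase of spindle poles, overlapped between Dox and the controls, with Dox library 1 at 6.32 and control library 3 at 5.09 normalized counts. Plk1 reached at most 3.16 with Dox and had at least 4.23 in the controls.

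Of the spindle motors, Kif20a, which works in cytokinesis, had 15.9, 43.3 and 29.2 normalized counts in the controls, 8.42, 10.4 and 8.80 with Dox, and 35.2, 91.7 and 55.6 with Tc. The Dox libraries were close together and below all others, and Tc library 1 was the only Tc library within the control range. For Kif20a the log2 fold change was -1.48 with Dox (SE 0.43, limma adjusted p = 0.0656; DESeq2 adjusted p = 0.0190, and 0.488 without libraries 3) and 1.02 with Tc (SE 0.43, limma adjusted p = 0.414). Kif11, which separates the spindle poles, had 12.7, 21.2 and 34.3 normalized counts in the controls, 10.5, 1.15 and 7.92 with Dox, and 20.5, 23.4 and 26.1 with Tc, with the lowest value in Dox library 2. Kif23 had 3.18, 14.2 and 11.4 normalized counts in the controls, 7.37, 4.60 and 6.16 with Dox, and 10.7, 19.8 and 12.6 with Tc, and its Dox range lay inside that of the controls. Kif20a overlaps Cdc23 for 2327 bases, Ccna2 overlaps Exosc9 for 863 and Ccnd1 overlaps a neighbouring gene for 1771, all on the opposite strand.

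Dox and Tc, given at the same dose and for the same time, were compared directly over the 32 genes, with p-values adjusted over all 13081 genes. Limma called no difference. The 95% intervals of the log2 difference lay wholly below 0 for 13 of the 15 mitotic genes, for example -2.69 to -1.30 for Ccna2, -3.35 to -1.34 for Top2a, -3.67 to -1.49 for Birc5 and -3.47 to -1.53 for Kif20a, with limma adjusted p = 0.0558, 0.0738, 0.0738 and 0.0698. Such an interval equals an unadjusted limma p under 0.05, at which 11.0% of all genes were lower with Dox. The intervals treat libraries 3 as independent and are thus too narrow. DESeq2 called 13 of the 15 lower with Dox, together with Ccnd1 and Mcm6, beside 2.55% of all genes. It called Cdt1 higher, beside 2.32%. Without libraries 3, DESeq2 called 0 of the 32 genes in this comparison. The intervals enclosed 0 for others, from -0.17 to 0.52 for Pcna, -0.70 to 0.08 for Rrm1 and -0.75 to 0.29 for Mcm4. Of the 32 genes, 18 were lower and 2 higher in every Dox than in every Tc library, beside 12.3% and 11.7% of all genes. Against the controls, 6 were higher and 3 lower in every Tc library, beside 15.1% and 14.8%: Mcm6, Rrm1, Tyms, Ccne1, Ccne2 and Cdk1 were higher, and Mcm7, Rrm2 and Cdt1 lower.

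The replication and mitotic genes were then set against each other. The median log2 fold change of the replication genes exceeded that of the mitotic genes by 1.79 with Dox (0.04 against -1.75). For Tc the difference was -0.27 (0.27 against 0.54), and for Dox against Tc it was 2.05 (-0.23 against -2.28). Without libraries 3 the differences were 1.72, -0.25 and 2.03. Taken library by library, the replication median less the mitotic median was 0.34, -0.26 and -0.21 in the controls, 1.15, 2.37 and 1.58 with Dox and 0.33, -1.02 and -0.31 with Tc. The Dox libraries thus lay above all others, and the Tc libraries overlapped with the controls. These are descriptions and were given no test. The difference with Tc became 0.07 without Control replicate 1 and 0.07 without Tc replicate 2.

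Within each group, most mitotic genes were highest in the same library. Tc library 2 was the highest of its group for 14 of the 15 mitotic genes, with a median of 1.27 on the log2 scale above the control mean, and Tc library 1 the lowest for 14, with a median of -0.06. Control library 2 was the highest control for 11 of the 15 and control library 1 the lowest for 11. In the Dox group, library 1 was the highest for 11 and library 2 the lowest for 9. The replication genes gave no such order in Tc, where the 3 medians were 0.28, 0.25 and 0.25. Among the marker lists reported here, those of neutrophils, Kupffer cells, erythroid cells and stellate cells ordered the libraries of the controls and Tc as the mitotic genes did. The neutrophil marker medians were -1.78, 1.26 and 0.47 in control libraries 1, 2 and 3 and -3.20, -1.15 and -2.08 in the Tc libraries, and the Kupffer cell medians -0.35, 0.34 and 0.06, and -1.39, -0.44 and -0.91. With Dox these neutrophil and Kupffer cell lists were highest in library 2 (-2.42 and -0.62), where the mitotic median was lowest. The erythroid medians were -1.11, 0.86 and 0.29 in the controls, -1.72, -1.33 and -1.66 with Tc and -1.42, -2.14 and -1.77 with Dox. The stellate cell medians were -0.04, 0.08 and 0.004, then 0.008, 0.091 and 0.019, and -0.21, -0.66 and -0.35. With Dox both of these lists were, as the mitotic genes were, highest in library 1 and lowest in library 2. The part of these cells in the order was not tested.

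**Figure D5:**
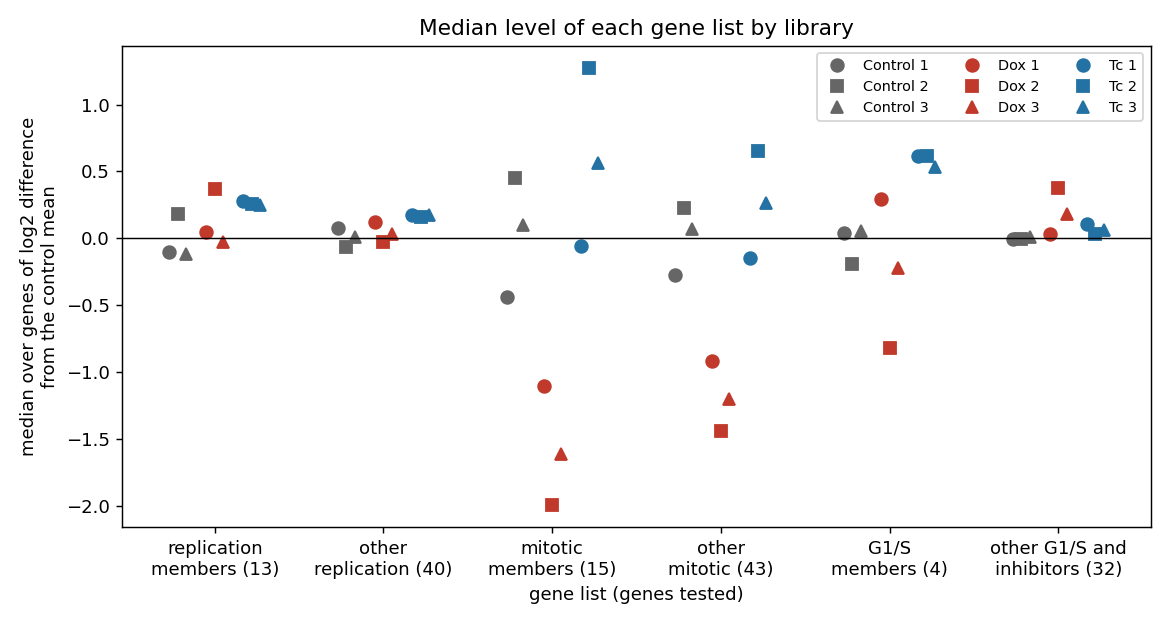
Medians over the genes of each list of log2(normalized count + 1) minus the control mean, for every library (circle 1, square 2, triangle 3). Both mitotic lists are lowest in the Dox libraries (-1.11 to -1.998 and -0.92 to -1.44), and both replication lists stay between -0.12 and 0.37 in all libraries.

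Other genes of the same pathways gave a wider view. Of 43 tested genes among 56 other mitotic genes, limma called 0 higher and 5 lower with Dox, beside 1.12% and 4.01% of all genes. With Tc it called 0, beside 0.183% of all genes. The median log2 fold changes of the 43 were -1.12 with Dox and 0.29 with Tc. DESeq2 called 11 of the 43 lower with Dox, beside 6.17% of all genes. With Tc it called 1 lower, Mad2l1 (log2 fold change -1.02, adjusted p = 0.0250), beside 1.58% of all genes called in either direction. Per library the medians were -0.92, -1.44 and -1.20 with Dox and -0.15, 0.65 and 0.26 with Tc. Of 40 tested genes among 48 other replication genes, limma and DESeq2 called 0 with either drug. At an unadjusted limma p under 0.05, 2 were higher and 2 lower with Dox, beside 12.9% and 15.7% of all genes. With Tc 1 was higher and 0 lower, beside 5.11% and 6.52% of all genes. The medians of the 40 were 0.06 with Dox and 0.15 with Tc. In all, 22 of the 43 other mitotic genes and 3 of the 40 other replication genes lay lower in every Dox than in every control library. Of all genes, 17.4% were lower in this way. Without libraries 3, DESeq2 called 1 of the other mitotic genes with Dox, Mad2l1 (adjusted p = 0.0187), and limma none. DESeq2 called 1.09% of all genes there.

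The 5 other mitotic genes called with Dox act at kinetochores, on spindle fibres and in cytokinesis. Mad2l1, the checkpoint protein that inhibits Cdc20, had 85.7, 60.2 and 77.6 normalized counts in the controls, 19.0, 13.8 and 11.4 with Dox, and 32.2, 41.4 and 36.2 with Tc, a change of -2.28 on the log2 scale (SE 0.25, limma adjusted p = 0.00527). Its Tc libraries also lay below all controls. Cenpf, a kinetochore protein, had 19.1, 27.4 and 24.2 normalized counts in the controls, 3.16, 1.15 and 5.28 with Dox, and 11.7, 64.7 and 38.7 with Tc, and fell by 2.67 with Dox (SE 0.62, limma adjusted p = 0.0362). Dlgap5, Cenpe and Racgap1, which act on spindle fibres, kinetochores and the cleavage furrow, changed by -2.38, -2.12 and -1.66 on the log2 scale with Dox (limma adjusted p = 0.0299, 0.0479 and 0.0392). Dlgap5 was low throughout, with 6.35, 11.5 and 7.63 normalized counts in the controls and 1.05, 0 and 1.76 with Dox.

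Of 32 tested genes among 34 other G1/S regulators and cell cycle inhibitors, limma called 1 higher and 1 lower with Dox and 0 with Tc. Of all genes, it called 1.12% higher and 4.01% lower with Dox and 0.183% in either direction with Tc. Gadd45a, a stress-induced brake on Cdk1, had 8.47, 35.4 and 17.8 normalized counts in the controls, 56.9, 158 and 88.0 with Dox, and 26.4, 15.3 and 23.6 with Tc, and rose with Dox (log2 fold change 2.33, SE 0.53, limma adjusted p = 0.0343; 0.556 without libraries 3). Cdkn2c, the Cdk4 and Cdk6 inhibitor p18, had 86.8, 92.0 and 83.9 normalized counts in the controls, 43.2, 39.1 and 43.1 with Dox, and 55.7, 80.03 and 60.6 with Tc, and fell with Dox (log2 fold change -1.05, SE 0.18, limma adjusted p = 0.0150; 0.551 without libraries 3). The Dox libraries of both genes stood apart from all controls. Other genes of the list, named after their values were seen, split widely within Dox. Btg2, an antiproliferative gene, had 233, 147 and 211 normalized counts in the controls, 60.02, 3362 and 1288 with Dox, and 109, 178 and 163 with Tc, and DESeq2 called it higher with Dox than in the controls (log2 fold change 2.99, adjusted p = 0.0316). Cdkn1a, the inhibitor p21, had 74.1, 299.9 and 196 normalized counts in the controls, 12.6, 883 and 319 with Dox, and 14.6, 21.6 and 23.6 with Tc. Dox library 1 lay below all controls for Btg2 and Cdkn1a, and Dox library 2 above them. The growth gene Myc, at 14.7, 1855 and 665 normalized counts with Dox, and the stress genes Gadd45b, at 4.21, 899.5 and 341, and Gadd45g, at 13.7, 2336 and 824, split in the same way. Against Tc, DESeq2 called Gadd45a, Gadd45b, Btg2, Cdkn1a and Ccng2 higher with Dox, and Ccnd2 and E2f8 lower. Of all genes, DESeq2 called 2.32% higher and 2.55% lower in this comparison, whereas limma called none. Dox library 1 nevertheless lay below every Tc library for Gadd45b, Btg2 and Cdkn1a. Without libraries 3, DESeq2 called no gene of this list in any comparison. The list as a whole had a median log2 fold change of 0.26 with Dox and 0.09 with Tc.

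Markers of other liver cells also differed between the groups. Their limma calls with Dox stand beside 1.12% of all genes called higher and 4.01% called lower. The 8 hepatocyte markers summed to 1149720 to 1625880 normalized counts in the controls, 619878 to 867640 with Dox and 861860 to 1290940 with Tc, with 0 called. Summed over 10 markers of Kupffer cells, the resident macrophages, levels ranged from 9880 to 18016 normalized counts in the controls, 2746 to 9216 with Dox and 4844 to 9512 with Tc, and 3 of the 10 were called lower with Dox. Markers of neutrophils and their precursors (10 genes) summed to 708 to 1231 in the controls, 7.37 to 123 with Dox and 21.5 to 731 with Tc, with 3 of 7 tested called lower with Dox and Elane at 0 in all Dox libraries. For 8 sinusoidal endothelial markers the ranges were 5684 to 5911, 2806 to 3701 and 4279 to 5087, with 2 called lower with Dox. Erythroid markers (11 genes) summed to 1546 to 6111, 828 to 2540 and 1361 to 2161, with 4 of 7 tested called lower with Dox and Rhag at 0 in all Tc libraries. T cell markers (7 genes) summed to 50.8 to 61.0, 15.8 to 43.7 and 26.1 to 29.7, with 0 of 2 tested called. Stellate cell markers (8 genes) summed to 4077 to 4276, 3500.1 to 3911 and 4133 to 4686, with 0 called, and 7 cholangiocyte markers to 207 to 251, 149.5 to 382 and 263 to 338, with 1 called higher with Dox and Cftr at 0 in all controls. A value of 0 for a marker allows up to 3 reads in a library, worth 2.53 to 3.81 normalized counts, and does not show that it was absent. The Dox sums lay wholly below the controls for hepatocyte, Kupffer, neutrophil, endothelial, T cell and stellate markers, as they did for the mitotic genes. With Tc, where the Kupffer, endothelial and T cell sums also lay below all controls, the mitotic sum was 314 to 782 against 258 to 485 in the controls. The part of these cells in the results was not tested.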

How the data were processed

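The authors trimmed single-end 86-base reads of stranded libraries from whole liver with cutadapt, aligned them with STAR to mm10, counted genes with HTSeq 2.0.5 and divided the counts by DESeq2 1.42.0 size factors, as the paper's methods and the labels describe; the deposited table of 9 libraries holds these normalized counts, a signal per gene and library with no further scaling. The size of 1 read was estimated in each library from its lowest values, which gave back whole reads for 100% of values (within 0.1 of a read), and totals were 8250804 to 10912338 reads in the controls, 7426136 to 10330238 with Dox and 10216627 to 12183041 with Tc.

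Groups were taken from the sample labels. The main fit was limma 3.58.1 (R 4.3.3) with a mean-variance trend on log2(normalized count + 1), in 1 model of 9 libraries with group as its term, over the 13081 genes whose mean reached 5. A gene was called at a Benjamini-Hochberg adjusted p under 0.05 and a fold over 2, limits that the study also used. The main unit was a normalized value, so count models (DESeq2 1.42.0 and edgeR 4.0.16 on the recovered reads) were alternatives, as were other pseudocounts, filters, scalings, sample weights, leaving out libraries and a replicate block. The script was tested on simulated data. Genes named were the 34 members, genes that limma called in 2 further lists, genes overlapping members, markers at 0 in a whole group, and a few chosen after their values were seen (Serpina1c, Tat, Btg2, Cdkn1a, Myc and others of their list). The result of 1 list of cell type markers is not reported here. The members and lists were chosen with earlier results of these data known. Symbols were matched for 32158 of 32285 identifiers, exon lengths and overlapping genes came from GENCODE vM21 (GRCm38), and promoters from RefSeq. Intervals of log2 differences came from the limma fit and its spread between libraries, whereas Poisson limits of sums and limits for 0 reads cover counting error only; 3 reads were worth 2.53 to 3.81 normalized counts.

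Same-numbered libraries of Dox and Tc shared their deviations from the group means (r = 0.3201, 0.3435 and 0.2408 for numbers 1, 2 and 3, over genes, which are not independent), and those of the controls did not (-0.1405 to 0.0967). Since library 3 of each group lay close to a weighted sum of libraries 1 and 2, these values of r are not separate measurements. The labels give no source for this pairing.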

Additional observations from a re-analysis of the deposited data

How the results depend on the processing

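Among 24 other fits, the count of the 32 genes called with Dox against Control (5) moved to 11 with DESeq2, 14 with array weights, 1 with only the 2 groups compared, 0 with libraries 1 and 2 only (limma, DESeq2 and edgeR) and 13 at an unadjusted p, and ranged from 0 to 12 when 1 library was left out. With Tc against Control (0) it was 2 with DESeq2, 4 with array weights, 2 with only the 2 groups compared, 3 at an unadjusted p and 0 to 2 without 1 library. For Dox against Tc (0) it was 16 with DESeq2, 18 with array weights, 17 at an unadjusted p and 0 to 16 without 1 library. With the replicate block the counts were 6, 0 and 0, beside 4.59%, 0.0153% and 0.0153% of all genes. With the replicate block in only the 2 groups compared they were 0 for Dox and 3 for Tc against Control, beside 0.0382% and 2.77%. The replication less mitotic median was 0.99 for Dox against Control and 1.10 for Dox against Tc at a pseudocount of 8, and ranged from 1.47 to 1.99, -0.55 to 0.07 (Tc against Control) and 1.70 to 2.30 without 1 library. Of the values for single genes, 2137 kept their side of the threshold, 99 passed it, 53 lost it, and 56 of 2289 (20 genes and comparisons) had the opposite sign, all without a call in either fit. Scaling to the same total per library moved the median of all genes to 0.16 and the split of all calls with Dox from 147 higher and 524 lower to 250 and 355; relative to that median the replication genes stood at 0.06 and the mitotic genes at -1.79. Of all genes, DESeq2 called 9.26%, 1.58% and 4.87% in the 3 comparisons and array weights 14.5%, 6.97% and 10.2%, 11.2%, 3.79% and 7.06% passed an unadjusted p with the fold limit, and 2.74% and 2.39% were called with only the 2 groups compared. The causes were not tested. Depth limits the mitotic genes, several of which had under 10 reads per library.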
